A study of Mus musculus with 18 samples.

Results

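Ribosome footprints on selenoprotein mRNAs were compared between livers that had lost the selenocysteine transfer RNA gene Trsp in hepatocytes and livers that had kept it. The libraries were chosen by their labels: 2 footprint libraries of Trsp knockout livers and 3 of Trsp wild type livers, 5 of the 18 libraries in all. The RNA-seq libraries of the same 2 groups, 2 and 3, are given beside them. The other libraries came from a mouse colony with a knockout of Secisbp2, which encodes a protein that binds selenoprotein mRNAs, and its own wild type.

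All mice were males of 5 to 8 weeks and whole livers were used. The knockout is described as a conditional deletion in hepatocytes with the genotype Alb-Cre; Trsp fl/fl, so that the albumin promoter drives the Cre recombinase and other cells of the liver keep the gene. The controls were littermates described as carrying wild type alleles, and the sources used here do not say whether they carried Cre or floxed alleles. The labels state 3 mice per background, and 2 Trsp knockout footprint libraries are analysed here. Nothing in the labels says that each library came from a separate mouse. The p-values therefore measure the spread between libraries of a group, which may in part be technical. All 4 groups entered the fit, so this spread includes that of the Secisbp2 libraries.

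Selenoproteins contain selenocysteine, an amino acid encoded by UGA, which in other mRNAs is a stop codon. The transfer RNA made from Trsp reads that UGA with the help of a hairpin in the 3' untranslated region of the mRNA. Ribosomes that fail to insert selenocysteine stop at the UGA, and the mRNA can then be destroyed by nonsense-mediated decay. The liver makes the selenium carrier Selenop for the rest of the body, together with abundant intracellular enzymes such as the peroxidases Gpx1 and Gpx4. Footprints 5' of the UGA therefore report ribosomes that have started on an mRNA, footprints 3' of it report ribosomes that have passed the UGA, and the 3'/5' ratio of the densities within a library measures how the mRNA is read at that codon.

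The tables hold 23 selenoprotein genes. Trsp itself is not among them, so that its deletion was not checked, and 0 of 4 hepatocyte markers and 0 of 11 markers of other liver cells are in the tables. In these bulk samples, fewer cells of a type and less RNA per cell cannot be told apart. Densities are in reads per kilobase of window and per unit of sequencing depth (RPKM). Whole reads could be recovered from the RPKM values, which gave 5846033 and 8056254 mapped reads for the Trsp knockout footprint libraries and 5065579 to 7247127 for Trsp wild type. Of these, selenoprotein mRNAs took 2970 and 4354 reads 5' of the UGA in knockout livers, against 4737 to 8418 in wild type, and 699 and 898 reads 3' of it, against 8688 to 12819.

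The same recovery gave the lengths of the windows. Sephs2 had 156 nucleotides (nt) 5' of the UGA and 1154 nt 3' of it, and Selenop had 144 and 950 nt. Short windows were those of Selenow 5' of the UGA, with 6 nt, of Selenoi 3' of it, with 17 nt, and of Msrb1 3' of it, with 50 nt. A further 6 genes (Txnrd1, Txnrd2, Txnrd3, Selenok, Selenos and Selenoo) had footprints 5' of the UGA and are listed at 0 3' of it in every library, and Dio2 and Dio3 had no footprint at all. In the 15 genes with reads on both sides, 24.5% and 21.8% of footprints lay 3' of the UGA in the knockout libraries, against 72.5%, 58.2% and 73.7% in wild type. The knockout libraries were alike in this share and far below each wild type library, while wild type replicate 2 was lower than the other wild types. Without Gpx1 the shares were 23.3% and 20.7% in knockout livers, against 68.8%, 65.9% and 69.1%. Most knockout reads 3' of the UGA were from Selenop, with 508 of 699 and 657 of 898. In wild type Selenop gave 6237 of 12819, 5075 of 8688 and 4572 of 9306. The knockout reads 3' of the UGA were thus mainly those of Selenop. The shares also rest on the reads 5' of the UGA, of which Selenop gave 639 of 2152 and 983 of 3226 in knockout livers.

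Trsp wild type replicate 2 stood apart from the other wild type libraries in several genes. A library is counted here as apart where the exact 95% interval of its reads, which covers counting error only, overlapped neither of the other wild types. Replicate 2 was higher 5' of the UGA in 6 of 20 genes (Gpx1, Selenok, Txnrd1, Selenof, Selenoi and Selenoo), and 3' of it was lower in Gpx1, Selenof, Sephs2 and Msrb1 and higher in Gpx4. The 3'/5' ratio of replicate 2 was lower in Gpx1, Selenof and Msrb1. The clearest case was Gpx1, with 4340 RPKM 5' of the UGA in replicate 2 and 1275 and 1020 in replicates 1 and 3. In RNA-seq, Gpx1 mRNA of wild type replicate 2 was 1975 RPKM, below the 2079 and 2184 RPKM of the other wild types. It was apart from them by the same rule. No label says that replicate 2 is the same liver in both assays. Replicates 1 and 3 were apart in places too: replicate 3 was the lowest 5' of the UGA and the highest in the ratio for Gpx1, and by the same rule mRNA levels were apart in 4 genes for replicate 1, 5 for replicate 2 and 7 for replicate 3.

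The 3'/5' ratio addressed how far reading through the UGA was reduced in livers with Trsp deleted in hepatocytes. Other liver cells are described as keeping the gene, and what they add to the reads was not tested. The ratio was lower in Trsp knockout livers in 9 of the 12 genes tested (75%), higher in 0 and did not pass in 3. The median log2 change was -1.82. Values were compared with limma on log2(RPKM + 0.5), with Benjamini-Hochberg adjustment over the genes tested and a threshold of 0.05 on the adjusted p. On this scale a fold change of a density understates the change of low genes. A ratio with few or 0 reads 5' of the UGA can be moved either way by the 0.5 RPKM added. At an unadjusted p under 0.05 the counts were the same, 9 and 0. The knockout libraries lay below all wild type libraries in 9 genes (75%) and above them in 1 (8.33%), which was Selenoi.

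Sephs2 makes selenophosphate, the selenium donor for selenocysteine, and is itself a selenoprotein. Its 3'/5' ratio was 0.0141 and 0.0223 in knockout livers, against 0.576, 0.540 and 0.607 in wild type. The groups were far apart, and the knockout mean was 3.17% of the wild type mean, the smallest share of any gene tested (log2 change -4.81, SE 0.34, limma adjusted p = 2.7e-05). These ratios rested on 21 and 29 reads 3' of the UGA in knockout livers, against 1026 to 1530 in wild type.

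Selenop is the secreted protein that carries selenium from the liver to other organs, and its mRNA holds several UGA codons. The ratio was 0.1205 and 0.101 in knockout livers, against 0.603, 0.605 and 0.571 in wild type. Replicates lay close together within both groups, and the knockout mean was 18.7% of wild type (log2 change -2.42, SE 0.23, adjusted p = 0.000109, limma), or a change of -1.83 with the Secisbp2 colony's wild type as control. With 508 and 657 reads 3' of the UGA, Selenop kept more such reads in knockout livers than any other gene tested.

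The peroxidases differed among themselves. Gpx4, which reduces lipid hydroperoxides in membranes, had ratios of 0.0310 and 0.0191 in knockout livers, against 0.231, 0.302 and 0.178 in wild type. The groups did not overlap, and the knockout mean was 10.6% of wild type (log2 change -3.19, SE 0.35, limma adjusted p = 0.000158). Gpx1, the abundant cytosolic peroxidase, had ratios of 0.244 and 0.155 in knockout livers, against 1.04, 0.173 and 1.35 in wild type. Wild type replicate 2 lay between the knockout libraries, and the log2 change of -1.66 did not pass (SE 0.86, limma adjusted p = 0.103). Without that replicate it was -2.58 and passed (adjusted p = 0.000904). Gpx3, the plasma peroxidase, had ratios of 0.626 and 0.695 in knockout livers, against 1.67, 2.92 and 2.09 in wild type, on no more than 10 reads in any window and library. The groups did not overlap (log2 change -1.33, limma adjusted p = 0.025), but the call was lost without either knockout library (adjusted p = 0.0793 and 0.0911), with 0.1 RPKM added in place of 0.5 and with weights from the read numbers.

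Among the small redox proteins, Msrb1, which reduces oxidized methionine, had ratios of 0.108 and 0.0193 in knockout livers, against 0.614, 0.302 and 0.778 in wild type. All knockout values were below all wild type values, with 6 and 2 reads 3' of the UGA behind them (log2 change -3.44, SE 0.77, limma adjusted p = 0.00603). Without knockout replicate 2 the change was -2.25 (adjusted p = 0.035), and without knockout replicate 1 it was -4.63 (adjusted p = 0.00176). Selenow, a thioredoxin-like protein, had ratios of 0.142 and 0.0708 in knockout livers, against 0.361, 0.509 and 0.232. Although the groups did not overlap, its 6 nt window 5' of the UGA held 1 and 2 reads in knockout livers, against 4, 4 and 5, and the call (-1.64, limma adjusted p = 0.0347) was lost without knockout replicate 2 (-1.17, adjusted p = 0.214), with wild type replicate 2 left out (adjusted p = 0.0597) or replicate 1 (adjusted p = 0.0742), with the wild type of the Secisbp2 colony as control (adjusted p = 0.109), and with read weights (adjusted p = 0.0859). Selenoh, a nuclear redox protein, did not pass (-1.58, limma adjusted p = 0.258, or -2.41 and 0.0784 without wild type replicate 2) with 0 to 9 reads in a window. Its ratios overlapped, at 0.244 and 0.733 in knockout livers, against 0.660 and 0.440 in wild type replicates 1 and 2. Wild type replicate 3 had 0 reads 5' of the UGA, so the size of the fitted change depends on the 0.5 RPKM added.

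Selenot and Selenof are proteins of the endoplasmic reticulum. Selenot had ratios of 0.0639 and 0.0298 in knockout livers, against 0.272, 0.572 and 0.289 in wild type. The groups were apart (log2 change -2.69, SE 0.45, limma adjusted p = 0.00146), but with the wild type of the Secisbp2 colony as control the change was -0.08 (adjusted p = 0.874). Selenof had 0.403 and 0.254 in knockout livers, against 1.33, 0.492 and 1.21, so that wild type replicate 2 lay nearest the knockouts. Its change of -1.52 (SE 0.51, limma adjusted p = 0.0312) was -1.97 without that replicate (adjusted p = 0.0022), while the call was lost without knockout replicate 2 (adjusted p = 0.185), wild type replicate 1 (adjusted p = 0.0742) or wild type replicate 3 (adjusted p = 0.0734), and with the Trsp groups alone in the fit (adjusted p = 0.0657). Selenoi, an enzyme of phospholipid synthesis, had ratios of 2.99 and 3.08 in knockout livers, against 2.22, 0.146 and 0.9748. The knockout values were above all wild type values, but the 17 nt window held 1 to 15 reads and the change of 2.13 did not pass (limma adjusted p = 0.0851). It was 1.04 without wild type replicate 2 (adjusted p = 0.0509) and 2.97 without replicate 1, where it passed (adjusted p = 0.0184), and it turned to -0.70 with the Secisbp2 colony's wild type as control (adjusted p = 0.648).

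Dio1, the liver enzyme that removes iodine from thyroid hormone, had ratios of 0.0432 and 0.0504 in knockout livers, against 0.265, 0.212 and 0.196 in wild type. Replicates lay close together in both groups, and the knockout mean was 20.9% of wild type (log2 change -1.99, SE 0.27, limma adjusted p = 0.000548). Of the 9 calls, 5 held under every alternative tried: Sephs2, Msrb1, Gpx4, Selenop and Dio1.

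**Figure D1:**
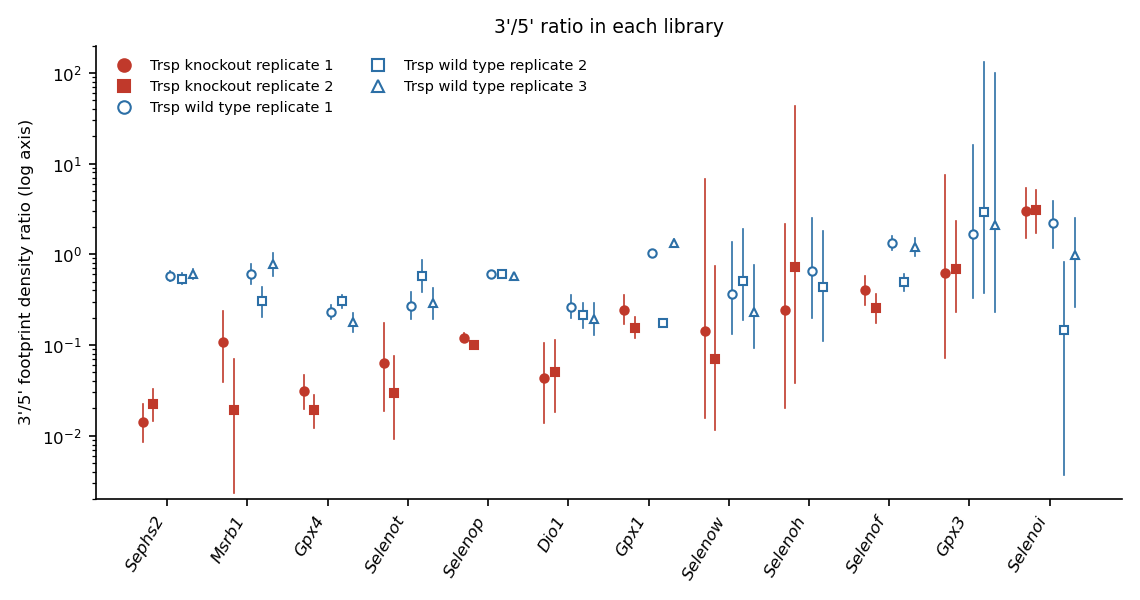
The 3'/5' footprint density ratio (log axis) is plotted for each of the 12 genes tested and each library, with filled red symbols for Trsp knockout and open blue symbols for Trsp wild type. Lines are exact 95% intervals from read numbers (counting error only). Sephs2 and Selenop show tight, separate groups, wild type replicate 2 of Gpx1 lies between its knockout libraries, and Selenoh of wild type replicate 3 is not drawn because it had 0 reads 5' of the UGA.

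Footprints 3' of the UGA, from ribosomes that had passed it, fell in 10 of the 12 genes tested (83.3%) and rose in 0, with a median log2 change of -3.18. At an unadjusted p under 0.05 there were 10 lower and 1 higher (limma). The knockout libraries lay below all wild type libraries in 10 genes (83.3%) and above them in 1 (8.33%), again Selenoi. Sephs2 and Gpx1 changed the most, by -5.61 (SE 0.34, limma adjusted p = 1.07e-07) and -5.43 (SE 0.36, limma adjusted p = 1.36e-07). Sephs2 had 3.11 and 3.12 RPKM in knockout livers, against 183, 149 and 198 in wild type. Gpx1 had 24.4 and 26.0 RPKM in knockout livers, against 1324, 751 and 1373 in wild type. Both knockout libraries gave nearly the same density for each of these genes, and even the lowest wild type library was far above them.

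Selenop had 91.5 and 85.8 RPKM 3' of the UGA in knockout livers, against 906, 898 and 950 in wild type, a change of -3.37 (SE 0.28, limma adjusted p = 8.33e-07). Its remaining density, 9.66% of the wild type mean, was above that of Gpx1 (2.19%) and Sephs2 (1.76%). Gpx4 had 11.9 and 8.64 RPKM in knockout livers, against 69.2, 98.3 and 53.9 (-2.76, SE 0.37, limma adjusted p = 3.23e-05). No knockout value of either gene came near the wild type values.

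Selenot had 2.01 and 1.46 RPKM 3' of the UGA in knockout livers, against 23.1, 32.04 and 26.0 in wild type (-3.62, limma adjusted p = 8.61e-07). Selenow had 4.03 and 2.93 RPKM in knockout livers, against 33.2, 57.1 and 38.2 (-3.42, limma adjusted p = 2.09e-06). Dio1 had 2.25 and 1.96 RPKM in knockout livers, against 22.9, 23.004 and 15.6 (-2.99, limma adjusted p = 1.24e-05). In each of these genes 5 or 6 reads per knockout library stood against 30 to 81 in wild type. Msrb1 had 20.5 and 4.97 RPKM in knockout livers, against 196, 104 and 221 (-3.95, SE 0.58, limma adjusted p = 5.43e-05), and its knockout libraries were the least alike of the 10 genes that fell. Its change was -4.92 without knockout replicate 1 and -2.98 without replicate 2.

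Selenof had 35.3 and 24.3 RPKM 3' of the UGA in knockout livers, against 194, 102 and 159 in wild type (-2.30, limma adjusted p = 0.000102). Its mean remained at 19.6% of wild type, and wild type replicate 2 was again the lowest of its group. Selenoh had 1.55 and 1.12 RPKM in knockout livers, against 5.62, 4.56 and 4.47 (-1.56, limma adjusted p = 0.000592), on 2 and 2 reads in knockout livers. Gpx3 (-0.34, limma adjusted p = 0.377) and Selenoi (1.63, limma adjusted p = 0.0532) did not pass. Selenoi had 121 and 110 RPKM in knockout livers, against 106, 9.89 and 46.4, and passed at 2.39 without wild type replicate 1 (adjusted p = 9.76e-05) and at 1.80 without replicate 3 (adjusted p = 0.0434). Without wild type replicate 2, which held 1 read, its change was 0.71 (adjusted p = 0.0899), and with the Secisbp2 colony's wild type as control it turned to -0.62 (adjusted p = 0.499).

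All 10 of these falls held when any of the 5 libraries was left out, and with the Secisbp2 colony's wild type as control, where the changes of Sephs2 (-4.39), Dio1 (-2.31) and Selenot (-1.93) were smaller. They are relative to all mapped reads. With each library scaled to the median of the selenoproteins tested, the changes shifted up by 2.87 on the log2 scale. That median comes from the same genes, most of which fell, so the scaling takes out their shared fall and cannot test it. Relative to that median, 3 were lower (Sephs2, Gpx1 and Selenot) and 3 higher (Selenoi, Gpx3 and Selenoh). Under that scaling Gpx4 (0.16), Selenof (0.65), Selenoh (0.93) and Gpx3 (2.07) turned to a positive sign, and the medians of the peroxidases (0.16) and the endoplasmic reticulum proteins (0.65) with them.

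**Figure D2:**
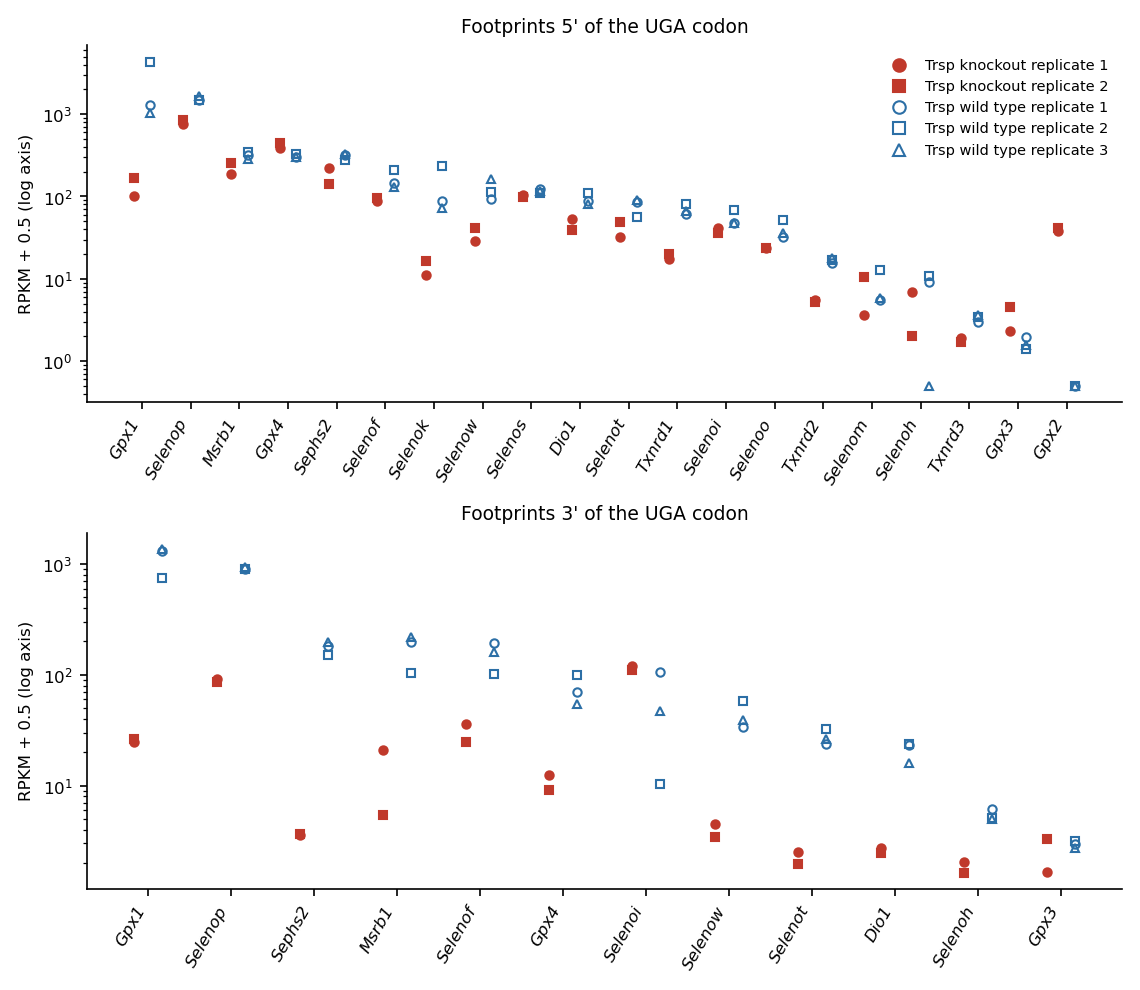
Footprint density (RPKM + 0.5, log axis) is plotted 5' of the UGA for 20 genes and 3' of it for 12 genes, with filled red symbols for the 2 Trsp knockout libraries, open blue symbols for the 3 Trsp wild type libraries and 1 symbol shape per replicate. In the lower panel the knockout libraries lie below wild type in 10 genes, while the groups lie closer together in most genes of the upper panel.

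Footprints 5' of the UGA addressed whether fewer ribosomes started on these mRNAs. They fell in 11 of the 20 genes tested (55%), rose in 1 (5%) and did not pass in 8, with a median log2 change of -0.79. The knockout libraries lay below all wild type libraries in 15 genes (75%) and above them in 3 (15%), which were Gpx2, Gpx3 and Gpx4.

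Gpx1 fell the most, with 99.8 and 168 RPKM in knockout livers, against 1275, 4340 and 1020 in wild type (-3.78, SE 0.58, limma adjusted p = 0.000945). The spread in wild type came from replicate 2, and without it the change was -3.13 (adjusted p = 0.000189). Selenok, which sits in the membrane of the endoplasmic reticulum, had 10.6 and 15.8 RPKM in knockout livers, against 87.4, 233 and 71.5 (-3.08, SE 0.47, limma adjusted p = 0.000945). Here too replicate 2 was the highest wild type library, and every wild type value was above both knockout values. With the Secisbp2 colony's wild type as control the change of Selenok was -1.54 (adjusted p = 0.0345).

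The thioredoxin reductases, which keep thioredoxin reduced in cytosol and mitochondria, fell in 3 of 3 members, against 55% of all genes tested. Their median log2 change was -1.64, against -0.79 over all genes tested. Txnrd1, the cytosolic enzyme, had 17.1 and 19.7 RPKM in knockout livers, against 60.8, 81.5 and 66.7 in wild type (-1.89, SE 0.20, limma adjusted p = 0.00019). Txnrd2, the mitochondrial enzyme, had 5.09 and 4.66 RPKM in knockout livers, against 14.9, 16.4 and 17.4 (-1.64, SE 0.20, limma adjusted p = 0.000284). Txnrd3, best known from testis, had 1.43 and 1.23 RPKM in knockout livers, against 2.52, 2.89 and 3.08 (-0.86, limma adjusted p = 0.00601). The groups did not overlap in any of them. Txnrd3 lost its call without knockout replicate 2. With libraries scaled to the selenoproteins' median, 2 of 3 members were lower, against 4 of the 20 genes tested. Against the Secisbp2 colony's wild type the changes of Txnrd2 (-2.44) and Txnrd3 (-1.63) were larger.

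Selenop had 759 and 847 RPKM 5' of the UGA in knockout livers, against 1502, 1484 and 1664 in wild type (-0.95, SE 0.25, limma adjusted p = 0.013). Dio1 had 52.1 and 38.9 RPKM in knockout livers, against 86.4, 109 and 79.5 (-1.004, SE 0.26, limma adjusted p = 0.0125). Both genes were near 50% of wild type (51.8% and 49.7% of the wild type means), with no overlap between groups. The Selenop call was lost without knockout replicate 1 (adjusted p = 0.0768) or 2 (adjusted p = 0.0546), and Dio1 without knockout replicate 2 (adjusted p = 0.0858).

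Smaller falls were seen in 3 genes. Selenof had 87.6 and 95.9 RPKM in knockout livers, against 146, 208 and 131 in wild type (-0.78, limma adjusted p = 0.0202). Selenot had 31.5 and 49.0 RPKM in knockout livers, against 84.7, 56.0 and 90.0 (-0.93, limma adjusted p = 0.03). Selenoo, a mitochondrial protein that attaches AMP to other proteins, had 23.5 and 22.97 RPKM in knockout livers, against 31.8, 51.8 and 35.8 (-0.73, limma adjusted p = 0.03). No values overlapped, but each of the 3 calls was lost without knockout replicate 1 (adjusted p = 0.0994 for Selenof, 0.195 for Selenot and 0.0994 for Selenoo), and those of Selenof and Selenoo also without replicate 2 (adjusted p = 0.0718 and 0.113) and with the Secisbp2 colony's wild type as control (adjusted p = 0.182 and 0.293). Without wild type replicate 3 neither Selenot (adjusted p = 0.0815) nor Selenoo (adjusted p = 0.054) passed. Without wild type replicate 1 Selenot did not (adjusted p = 0.0904). With the Trsp groups alone in the fit both Selenot and Selenoo missed the threshold (limma adjusted p = 0.0523 for each). With the replicate number as a block they also missed it (limma adjusted p = 0.072 and 0.0645). Selenow fell as well (-1.78, limma adjusted p = 0.00601), with 28.5 and 41.4 RPKM in knockout livers, against 92.0, 112 and 165, but with read weights its few reads gave an adjusted p of 0.0656.

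Sephs2 had 220 and 140 RPKM 5' of the UGA in knockout livers, against 318, 277 and 326 in wild type, and just missed the threshold (-0.80, limma adjusted p = 0.0521). Its change was -1.13 without knockout replicate 1, the higher of the knockout libraries, and -0.47 without knockout replicate 2. With the Secisbp2 colony's wild type as control it was -0.014 (limma adjusted p = 0.969). Msrb1 had 189 and 257 RPKM in knockout livers, against 319, 345 and 284 (-0.51, SE 0.23, limma adjusted p = 0.0819). Gpx4 had 384 and 452 RPKM in knockout livers, against 300, 325 and 302 (0.43, SE 0.25, limma adjusted p = 0.144). In these 3 genes the density 3' of the UGA fell without a called change 5' of it, and Gpx4 values in knockout livers were above all wild type values. The rest that did not pass, Gpx3, Selenoi, Selenos, Selenom and Selenoh, had log2 changes between -0.49 and 0.99. Selenom, with 3.08 and 10.1 RPKM in knockout livers, against 4.97, 12.1 and 5.34, rested on 2 to 9 reads. Selenon was under the minimum of 1 RPKM set for the tests, at 0.820 and 0.893 RPKM in knockout livers, against 0.331, 0.672 and 0.789, and both genes were under it 3' of the UGA.

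Gpx2 rose. It is a glutathione peroxidase known mainly from the gut lining and had 37.4 and 41.4 RPKM 5' of the UGA in knockout livers, against 0 in all 3 Trsp wild type libraries. These were 19 and 29 reads, against 0, which is 21.0-fold higher in knockout livers if the wild type libraries together are set to a floor of 3 reads. The exact 95% interval of this fold from the reads starts at 16.4. Its fitted log2 change of 6.32 (limma adjusted p = 1.31e-06) depends on the 0.5 RPKM added. With the wild type of the Secisbp2 colony as control it was 1.92 (adjusted p = 0.00239). Gpx2 footprints 3' of the UGA numbered 2 and 5 in knockout livers, against 0, or 3.06-fold higher against the same floor. There the exact 95% interval starts at 1.89. The 3'/5' ratio of these reads was 0.0210 and 0.0343 in knockout livers, and Trsp wild type livers, with 0 reads on either side, gave no ratio to compare with.

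By list, 1 of 4 glutathione peroxidases fell 5' of the UGA and 1 rose (median 0.71), 3 of 6 endoplasmic reticulum proteins fell (median -0.64), and 2 of 4 proteins with a CXXU redox motif fell (median -0.60), against 55% of all genes tested. Among the 4 members known for mRNAs that drop when selenium is scarce (Msrb1, Selenoh, Selenow and Gpx1), 2 fell 5' of the UGA and 4 fell 3' of it, against 55% and 83.3% of all genes tested. In the 7 members with the UGA near the end of the reading frame, 5 fell 5' of the UGA (median -0.86, against 55% and a median of -0.79 over all genes tested), and Selenoi was the only one of them with a value 3' of it. Of the deiodinases Dio1 could be tested, and of the 7 genes of the selenocysteine machinery Sephs2 alone is in the tables. With each library scaled to the selenoproteins' median, which takes out what the genes tested share, the changes 5' of the UGA shifted up by 0.69. Relative to that median, 4 were lower (Gpx1, Selenok, Txnrd1 and Txnrd2) and 3 higher (Gpx2, Gpx3 and Gpx4). The medians of the endoplasmic reticulum list (0.06) and the CXXU list (0.07) turned to a positive sign under that scaling.

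**Figure D3:**
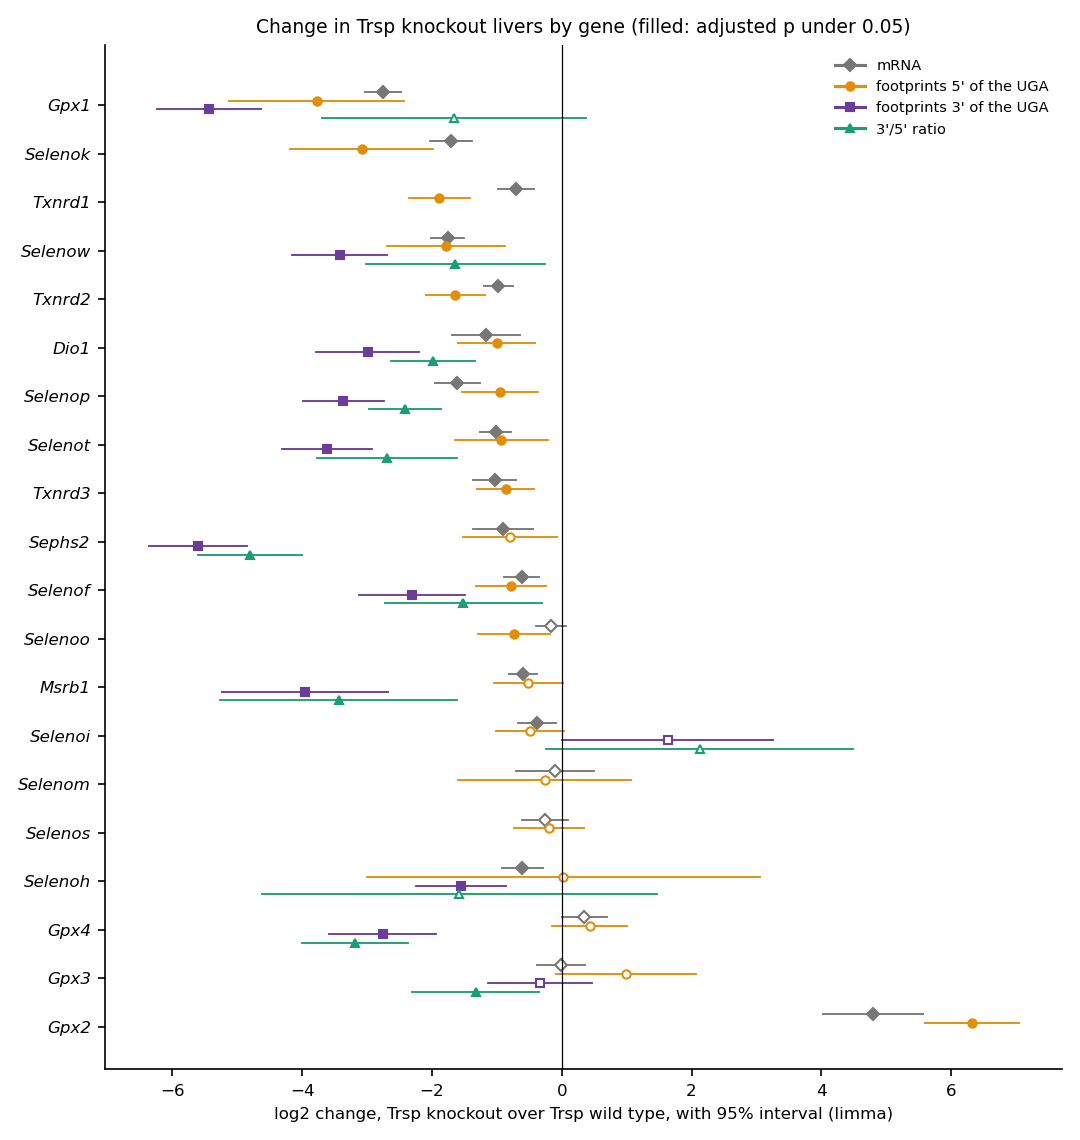
For each gene, the log2 change in Trsp knockout over Trsp wild type livers with its 95% interval from limma is plotted for mRNA, footprints 5' of the UGA, footprints 3' of it and the 3'/5' ratio, with filled symbols for an adjusted p under 0.05. Changes 3' of the UGA lie further left than those 5' of it in most genes with both values, while Selenoi lies to the right and Gpx2 is the gene past the threshold with both higher mRNA and higher footprints 5' of the UGA.

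Translational efficiency, the density of footprints 5' of the UGA per mRNA, set these falls beside those of the mRNAs, of which 14 of 20 fell (70%) and 1 rose (5%), with a median log2 change of -0.66. Efficiency, tested with limma as the interaction of assay and genotype, was lower in 2 of 20 genes (10%) and higher in 0, with a median of 0.08. At an unadjusted p under 0.05 it was lower in 4 and higher in 2. Both calls were thioredoxin reductases. Footprint and RNA-seq libraries share replicate numbers, but no label says that a number marks the same liver in both assays.

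Txnrd1 mRNA was at 21.6 and 23.1 RPKM in knockout livers, against 40.6, 37.3 and 32.6 in wild type, a smaller fall (-0.70) than that of its footprints (-1.89). The efficiency change was -1.18 (SE 0.22, limma adjusted p = 0.00249), and it lost its call without knockout replicate 1 (-1.13, adjusted p = 0.0646). Txnrd2 mRNA was at 7.01 and 7.64 RPKM in knockout livers, against 15.2, 13.97 and 15.6, and its efficiency changed by -0.66 (SE 0.19, limma adjusted p = 0.0479). That call was lost whichever of the 5 replicates was left out of both assays (adjusted p from 0.0838 to 0.363), without the filter on low values (adjusted p = 0.0511) and with libraries scaled to the selenoproteins' median (adjusted p = 0.0965).

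For Gpx1 the mRNA fell by 2.76 on the log2 scale, at 298 and 316 RPKM in knockout livers, against 2079, 1975 and 2184, and its efficiency change of -1.02 did not pass (95% interval -2.39 to 0.35, limma adjusted p = 0.329). Without wild type replicate 2 it was -0.34 (adjusted p = 0.739). Selenop mRNA was at 696 and 673 RPKM in knockout livers, against 2158, 1854 and 2265. Its fall (-1.61) was larger than that of its footprints 5' of the UGA (-0.95), and the efficiency change of 0.66 did not pass (95% interval 0.03 to 1.29, limma adjusted p = 0.138). Selenok (-1.38, limma adjusted p = 0.109), Selenoo (-0.56, limma adjusted p = 0.138) and Gpx2 (1.52, limma adjusted p = 0.0676) had an unadjusted p under 0.05 as well. For Gpx2, Trsp wild type livers had 0 footprint reads 5' of the UGA and 1, 0 and 2 RNA-seq reads. Its efficiency in wild type could thus not be measured, and the change and its p depend on the 0.5 RPKM added. For Gpx4 the mRNA was at 354 and 338 RPKM in knockout livers, against 233, 262 and 329 (0.35, limma adjusted p = 0.0631), beside an efficiency change of 0.09.

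**Figure D4:**
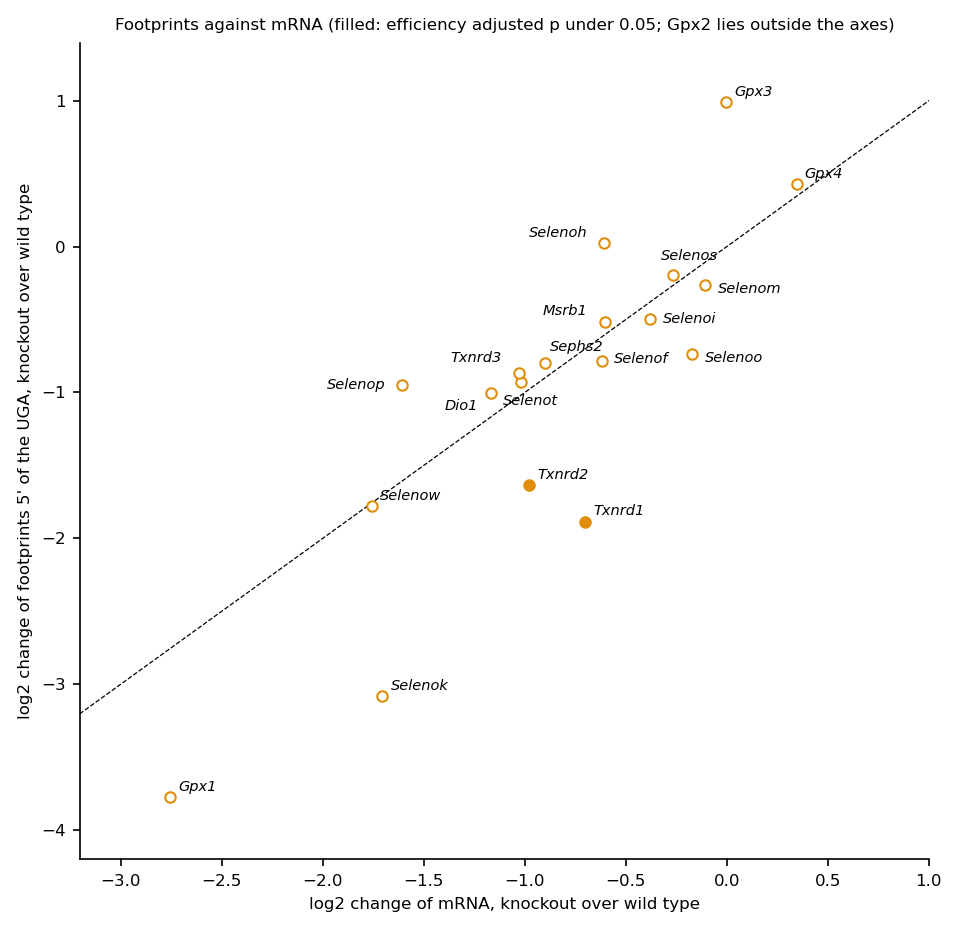
The log2 change of footprints 5' of the UGA is plotted against the log2 change of mRNA, Trsp knockout over Trsp wild type, with 1 point per gene for 19 of the 20 genes and filled points for Txnrd1 and Txnrd2, whose efficiency had an adjusted p under 0.05. Points below the dashed line of equal change lost more footprints than mRNA, and Gpx2 (4.80 for mRNA and 6.32 for footprints) lies outside the axes.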

How the data were processed

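The deposited RPKM, per the file headers, stand in separate tables for each side of the UGA and for RNA-seq. The submitters' processing notes name Bowtie 0.12.8 and the build mm9; window rules, filters and the handling of reads shared by similar genes are not stated there or in the labels. Footprints of 20 to 40 nt came from about 100 mg of liver digested with RNase I, per the labels' protocols. Of 23 gene symbols, 11 matched a GRCm38.p6 gene table directly and 12 by synonym, and no coordinates are given because the builds differ. A date in 1 cell (Selenof 3' of the UGA, Secisbp2 wild type replicate 1) was read as its serial number, 263.871 RPKM, which is 521 reads and enters the shared spread alone.

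Since RPKM values are fractions of whole reads, window lengths and mapped totals, these were solved exactly: all 312 footprint and 203 RNA values above 0 lay within 1e-06 of whole reads. Totals are determined up to a common factor, taken as 1. Exact 95% intervals, and floors of 3 reads, reflect counting error alone, as no molecular identifiers separate molecules from their copies.

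Genes averaging 1 RPKM or more over the 9 libraries were tested on log2(RPKM + 0.5) with limma 3.58.1 in R 4.3.3. All 4 groups entered the fit, and two-sided p-values were adjusted by Benjamini and Hochberg's method within each comparison. Of the 23 genes, 20 passed that minimum 5' of the UGA and 12 passed it 3' of the UGA. With 2 against 3 libraries, an exact permutation test per gene could reach a one-sided p of 0.1 at best. The recovery and the fits were tested on simulated data. Tables were read with Python 3.11.15, numpy 2.4.6 and pandas 2.3.3. Alternatives were other pseudocounts, filters, weights, scaling, control and fits, a replicate block, and leaving out each library. All genes of the tables could be named, with values in every library for genes past the threshold and for Gpx1, Gpx4, Selenop, Txnrd1, Selenow and Selenof. The members and lists were chosen with earlier results of these data known.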

Additional observations from a re-analysis of the deposited data

Results flagged for a closer look

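Some changes in Trsp knockout livers differed from those of Secisbp2 knockout livers against their own wild type (limma, difference of the knockout effects, adjusted p under 0.05). The knockouts came from separate colonies and library sets, so that genotype and set cannot be told apart. Each difference also holds any difference between the 2 wild types. With the Secisbp2 colony's wild type as control, the Trsp change of Gpx2 5' of the UGA was 1.92 in place of 6.32. That of the Sephs2 ratio was -4.37 in place of -4.81.

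For the 3'/5' ratio the Trsp effect was the lower, with a difference in log2 change (Trsp minus Secisbp2) of -3.51 for Sephs2 (-4.81 against -1.29), -2.97 for Selenot (-2.69 against 0.28), -2.89 for Dio1 (-1.99 against 0.90) and -2.30 for Selenop (-2.42 against -0.11). For footprints 3' of the UGA the difference was -2.84 for Selenot (-3.62 against -0.78), -2.49 for Gpx1 (-5.43 against -2.94) and -2.16 for Sephs2 (-5.61 against -3.45).

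For footprints 5' of the UGA the Trsp effect was the lower for Selenok (difference -4.35, -3.08 against 1.27), Txnrd1 (-2.10, -1.89 against 0.22), Txnrd2 (-1.64, -1.64 against 0.00307), Txnrd3 (-1.16, -0.86 against 0.29), Selenoo (-1.10, -0.73 against 0.36) and Selenoi (-1.05, -0.49 against 0.55). It was the higher for Gpx2 (difference 7.22, 6.32 against -0.90), Dio1 (2.41, -1.004 against -3.41), Selenop (1.68, -0.95 against -2.63), Gpx4 (1.55, 0.43 against -1.12) and Sephs2 (1.36, -0.80 against -2.16).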

How the results depend on the processing

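Scaled to the selenoproteins' median, which takes out a change shared by the genes tested, 4 genes were lower and 3 higher 5' of the UGA. Under the same scaling 3 were lower and 3 higher 3' of the UGA, and 1 was lower in efficiency (shift 0.14). Relative to that median, footprints 3' of the UGA turned to 0.16 for Gpx4, 0.65 for Selenof, 0.93 for Selenoh and 2.07 for Gpx3. With the Secisbp2 wild type as control, 2 genes were higher 5' of the UGA and 1 in efficiency, where Selenot turned to -1.54. Without the filter on low values, 2 were higher 3' of the UGA and 1 lower in efficiency. Efficiency was higher in 1 gene with 1 RPKM added, in 2 with the Trsp groups alone and in 1 with read weights. Leaving out each of the 5 libraries gave 6 to 11 genes lower 5' of the UGA (6 without knockout replicate 2), 10 lower and 0 to 1 higher 3' of it, 6 to 9 lower and 0 to 1 higher for the ratio, and 0 to 1 lower in efficiency. The cause was not tested.

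The replicate numbers do not pair the libraries by the labels, and deviations of same-numbered libraries correlated at 0.67 and -0.19 (5' of the UGA) and 0.03 and 0.15 (3' of it). Footprints 5' of the UGA and same-numbered RNA-seq correlated at 0.24 in knockout livers and at -0.33, -0.08 and -0.42 in wild type. The knockout value is a single one, because deviations from a mean of 2 libraries mirror each other. With the number as a block (for efficiency, group and number over both assays), which for footprints leaves wild type replicate 3 unpaired, 8 genes were lower 5' of the UGA (Selenoh turned to -1.41), 1 was higher 3' of it and 1 for the ratio, and 2 were higher in efficiency. Windows of Selenow, Selenoi, Selenoh, Gpx3 and Msrb1 with few reads limit what can be said of these genes.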
